A study of Mus musculus with 16 samples.

Results

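Mouse embryonic stem (ES) cells that received the Ptn TALE joined to VP64 were compared with cells that received the Ptn TALE called Delta. The comparison uses 8 of the 16 arrays of the study, 4 titled for VP64 and 4 titled for Delta, and every probe that is not a control, with the slide as a term. All cells were of the E14 ES line, an established mouse line, grown in serum and LIF, the cytokine that keeps them undifferentiated. They were transfected with a plasmid by lipofection, sorted for eGFP after 24 h, plated again and harvested 48 h after transfection, so the measured cells were those that took up the plasmid. The constructs were Ptn(TALE)VP64, Ptn(TALE)Delta, Ptn(TALE)DEL and eGFP alone, and each was hybridised to 4 single-colour Agilent arrays. Per the labels these 4 hybridisations come from 2 biological samples with technical repeats; which of them repeat the same sample is not stated.

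A TALE is a designed DNA-binding protein whose repeats each read a base of the target, so the same protein can carry different effector domains to the same site. VP64 is a synthetic transcriptional activator built from repeats of a motif of the viral protein VP16, which recruits Mediator, general transcription factors and histone acetyltransferases. The labels do not define Delta or DEL. From background knowledge of the study, and from no file used here, Delta is the TALE with no effector domain; if so, the groups share the TALE, the eGFP marker and the transfection and differ in the domain. The gene aimed at, Ptn, encodes pleiotrophin, a growth factor that cells secrete and that binds heparin; neural and mesenchymal cells are known to make it. The binding site of the TALE is not given in the sources used here.

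The upstream sequence of Ptn is shown because the TALE was aimed at this gene. It is the 250 bases before the RefSeq start of Ptn on the minus strand, chr6:36810180-36810429, from RefSeq's GRCm38.p6 table, written 5′ to 3′, with motif letters in capitals.
Ptn: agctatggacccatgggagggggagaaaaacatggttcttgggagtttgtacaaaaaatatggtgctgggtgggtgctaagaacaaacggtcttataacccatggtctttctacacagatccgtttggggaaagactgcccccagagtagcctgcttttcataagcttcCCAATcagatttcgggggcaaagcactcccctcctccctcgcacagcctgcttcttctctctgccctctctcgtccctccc
Both strands were searched for the TATA box (TATAAA), the CCAAT box, the Sp1 motif (GGGCGG), the AP-1 motif (TGANTCA), the TEAD motif (GGAATG), the core of the aryl hydrocarbon receptor motif (GCGTG) and the CArG box of SRF. The single match was a CCAAT between 81 and 77 bases before the start. CCAAT was present in 33.8% of the 32851 windows of this length in the table. A match of letters is not evidence of binding.

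Ptn was higher after VP64 than after Delta on every array, by both of its probes. Levels are log2 of the spot signal relative to the 75th percentile of the array, corrected for broad dim and bright patches. With every spot kept, the first Ptn probe read 3.46, 4.85, 3.36 and 2.75 on the VP64 arrays of replicates 1 to 4, and -0.47, -0.41, -0.79 and 0.15 on the Delta arrays. The second probe read 3.15, 2.98, 2.60 and 3.31 after VP64, and -1.58, 0.56, -1.88 and -1.37 after Delta. The lowest VP64 array lay above the highest Delta array for either probe, and all 4 VP64 arrays were well above background. Of the 4 Delta arrays, 3 were well above background for the first probe and 1 for the second, so the size of the second probe's difference rests mostly on Delta signals at the background.

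The tests of Ptn differ in strength with how the arrays are counted. In the main setting, which leaves out spots that the scanner software marked as outliers or that lay in strong patches, the second probe stood for the gene with 3 arrays in each group. The pairing test averages the 4 arrays of each construct into 2 samples, does so for each of the 3 ways to pair them, fits all 4 constructs with limma and keeps the largest p. It gave a difference of 3.46 ± 1.01 (SE) on the log2 scale, with an unadjusted limma p of 0.0148 for the 1 targeted gene. Adjusted over the 11876 genes tested by Benjamini-Hochberg, limma's p was 0.848, so Ptn did not pass across all genes. The array-level fit, which counts the 16 arrays singly and therefore gives p-values that are too small, had 4.26 ± 0.77 (SE) with an adjusted p of 0.0519. With every spot kept, the pairing test gave 3.98 ± 0.66 (15.8-fold) for the first probe, with an unadjusted limma p of 0.000413, and 4.08 ± 0.69 (16.9-fold) for the second, with one of 0.000623. Adjusted over all genes, the pairing p was 0.572 for either probe, and that of the array-level fit 0.00579 and 0.0139. On slide 1 the second probe differed by 3.58, and on slide 2 by 4.58.

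**Figure D1:**
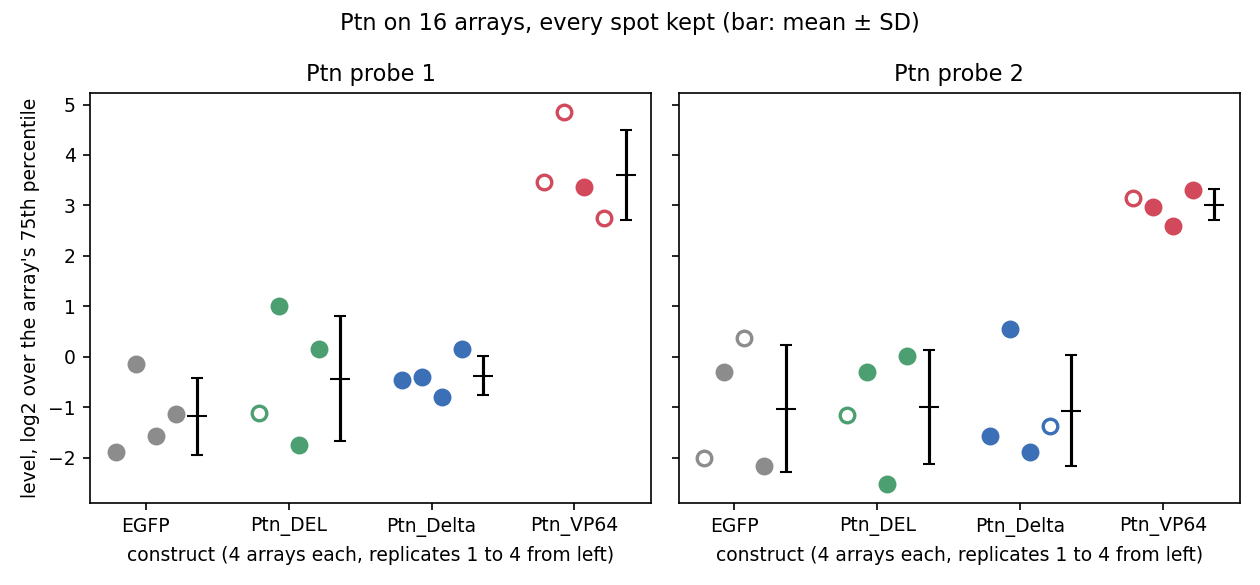
Levels of the 2 Ptn probes (log2 over the 75th percentile of the array) on the 16 arrays, replicates 1 to 4 from left in each construct, with every spot kept; open circles are spots left out in the main setting and bars are mean ± SD over 4 arrays. The VP64 arrays lie between 2.60 and 4.85 and all other arrays at or below 0.99.

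The levels with the other constructs are given side by side. For the first probe the mean was -1.19 ± 0.76 (SD, n = 4 arrays) with eGFP, -0.44 ± 1.24 with DEL and -0.38 ± 0.39 with Delta, against 3.61 ± 0.89 with VP64. The second probe had means of -1.03 ± 1.26, -0.998 ± 1.13 and -1.07 ± 1.1 in the same order, against 3.01 ± 0.31. Every array of the other 3 constructs lay below every VP64 array for both probes. In each row of both slides, eGFP lay at position 1, VP64 at 2, DEL at 3 and Delta at 4, so a construct and its position cannot be told apart.

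Across the 11876 genes, the pairing test called 1 gene, Il33, which is 0.00842% of those tested. Il33 codes for interleukin 33, a nuclear cytokine of the interleukin 1 family that is released as an alarm signal by damaged barrier cells. Its level was 2.52, 2.51 and 2.67 on VP64 arrays 1, 3 and 4, and the second array was not measured. The Delta arrays read -2.74, -2.65, -2.21 and -3.25. Il33 rose by 5.27 ± 0.20 (SE) with an adjusted p of 0.0146 in limma's pairing test. The pairing test called no gene under 11 alternatives. Of these, 3 left out VP64 replicate 1, 3 or 4. The others were no patch correction, normexp, the deposited values, marked spots kept, no filter on dim probes, fits of only 8 or only 12 arrays, and a filter for signal above background on all 4 arrays of a group, under which Il33 was not measured. The array-level fit called it under every alternative in which it was measured. The array-level fold was 39.8, and the differences on slide 1 and slide 2 were 5.21 and 5.32. Its mean was -3.11 with DEL and -2.71 with Delta, and lower with eGFP, at -3.87.

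RefSeq lists 2 starts for Il33, and the 250 bases before each are shown because this gene had the largest difference; motif letters are in capitals. They lie on the plus strand at chr19:29924863-29925112 and chr19:29945540-29945789 (GRCm38.p6).
Il33 first start: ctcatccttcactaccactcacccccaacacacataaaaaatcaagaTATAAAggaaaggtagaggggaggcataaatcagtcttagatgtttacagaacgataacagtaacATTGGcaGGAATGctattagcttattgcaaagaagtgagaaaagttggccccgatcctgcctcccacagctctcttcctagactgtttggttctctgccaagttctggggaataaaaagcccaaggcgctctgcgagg
Il33 second start: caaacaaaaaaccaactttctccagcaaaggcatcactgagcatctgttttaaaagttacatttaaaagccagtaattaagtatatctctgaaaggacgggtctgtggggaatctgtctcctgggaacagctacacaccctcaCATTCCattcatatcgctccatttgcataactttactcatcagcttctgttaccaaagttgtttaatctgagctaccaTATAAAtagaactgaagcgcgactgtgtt
The first window holds the TATA box, a CCAAT box on the minus strand and the TEAD motif, and the second holds the TATA box between 29 and 24 bases before the start and the TEAD motif on the minus strand. The TATA box was found in 12.4% and the TEAD motif in 12.6% of all windows. Among the 82 windows of genes called higher below, which cover 58 genes, the shares were 9.76% for the TATA box, 18.3% for the TEAD motif and 22.0% for the CCAAT box. The Sp1 motif, absent from the 3 windows shown, was in 52.4% of these windows and in 32.7% of all. The AP-1 motif was in 3.66% against 6.75%, the aryl hydrocarbon receptor core in 32.9% against 28.2% and the CArG box in 2.44% against 1.47%. These are descriptions of letters, with no test.

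Without adjustment, 591 genes had a pairing p under 0.05, 352 of them higher and 239 lower after VP64. The array-level fit called 94 genes at an adjusted p under 0.05. Of these, 68 were higher after VP64 (0.573% of those tested) and 26 were lower (0.219%). The words higher and lower below refer to this fit, whose p-values count technical repeats as replicates, and no gene but Il33 passed the pairing test. With no patch correction the array-level fit called 4 genes, all 4 among the 94, and leaving out VP64 replicate 3 or Delta replicate 4 left 26. With the row of the slide as a block, which is the replicate number, it called 269, 90 of the 94 among them. With quantile normalization of the patch-corrected levels it called 86 higher and 18 lower. All 94 had an unadjusted pairing p under 0.05, against 591 of all 11876 genes tested. Both tests use the same arrays, so the call largely fixes this in advance. The genes called higher had a median difference of 2.34 and those called lower one of -1.37, against -0.01 over all genes tested. Of the higher genes, 26 were not well above background on any Delta array, and 7 of the lower on no VP64 array, so their differences are approximate bounds. Single genes given below as at least some fold higher or lower rest on such bounds, and a true difference can be smaller. With these at their bound, the medians were 2.07 and -1.30, and 35 of the higher and 2 of the lower genes differed at least 4-fold.

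**Figure D2:**
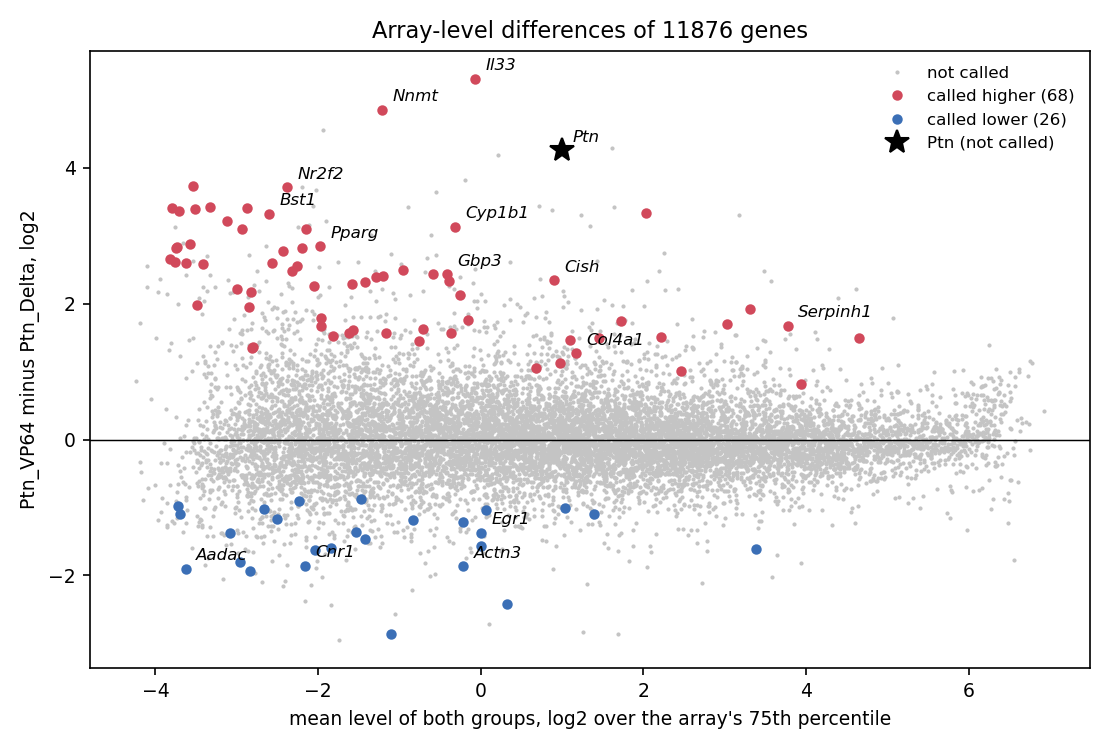
Difference of VP64 from Delta (log2, array-level fit) against the mean level of both groups for 11876 genes; coloured points are the 68 genes called higher and the 26 called lower, and the star is Ptn, at 4.26 with an adjusted p of 0.0519. Il33 at 5.31 and Nnmt at 4.86 stand highest.

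Of the 94 called genes, 89 were measured on both slides, and the sign was the same on slide 1 and slide 2 in all 89. The fit that called them pools both slides, so their equal sign is largely fixed by the choice; over all 8560 genes measured on both slides, the sign was the same in 60.1%. On all 8 arrays, 38 of the 94 were measured, and in all 38 the VP64 and Delta arrays did not overlap, which the call also favours. Over the 1563 genes measured on all 8 arrays, 127 had every VP64 array above every Delta array (8.13%) and 87 had every one below (5.57%). That split depended on the processing, with 95 above and 202 below when no patches were corrected, and 135 above and 41 below after quantile normalization of the corrected levels.

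**Figure D3:**
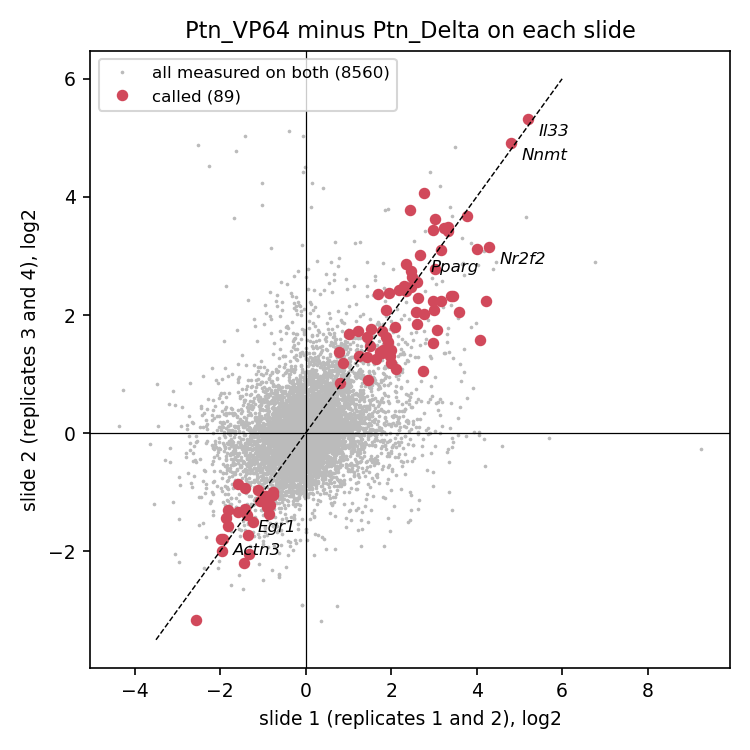
Difference of VP64 from Delta (log2) on slide 1, replicates 1 and 2, against slide 2, replicates 3 and 4, for the 8560 genes measured on both (grey) and the 89 of them called from both slides together (coloured); the dashed line marks equal values. Among all genes 60.1% have equal sign; of the called genes, Il33 lies at 5.21 and 5.32 and Nnmt at 4.81 and 4.91.

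The levels of the called genes in the other constructs are set beside these. The median level of the 68 higher genes was -0.58 after VP64, -2.79 after Delta, -2.74 after DEL and -2.89 after eGFP. The mean after VP64 was above that of DEL for 68 of 68 and above that of eGFP for 66 of 68. For the 26 lower genes the medians were -2.39, -0.94, -0.93 and -0.86 in the same order, and the VP64 mean was below both others for all 26. These values share the VP64 arrays and so are not independent of the comparison with Delta. Of the 68 higher genes, 26 passed the filter on dim probes only through VP64 arrays, and 7 of the lower genes only through Delta arrays. The counts against DEL and eGFP are therefore largely fixed by the choice of genes, and the share over all genes was not counted.

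Nnmt had the next largest difference. It codes for nicotinamide N-methyltransferase, an enzyme that methylates nicotinamide and so draws on the methyl donor and on the precursor of NAD. Its level was 1.12 and 1.31 on VP64 arrays 1 and 4, the 2 that were measured, and -3.81, -3.56, -3.94 and -3.27 on the Delta arrays. A single Delta array was well above background. The difference was 4.86 ± 0.30 (29.0-fold, against signals mostly at the background) with an adjusted p of 1.72e-05 in the array-level fit, and 0.0628 in limma's pairing test. Bst1, an ectoenzyme that makes cyclic ADP-ribose from NAD, read -0.56, -1.74, -0.34 and -1.09 after VP64. The Delta arrays read -3.43, -4.91, -3.69 and -5.01, none well above background, so Bst1 was at least 7.10-fold higher (adjusted p 0.00418). Of the 16 tested genes of a list of nicotinamide and pantetheine enzymes, these were the 2 called. Vnn1, a pantetheinase, read 0.82 and -1.91 on the 2 VP64 arrays measured and between -5.04 and -0.63 on the Delta arrays, which overlap, with an adjusted p of 0.0769.

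The next genes are the 12 largest differences upward among called genes with at least 3 arrays measured in both groups and no overlap; some genes measured on fewer arrays differed more, and those below background in Delta are ranked by fitted differences that are only bounds. Transcription factors of other lineages were among them. Nr2f2, the nuclear receptor COUP-TFII of mesenchyme and veins, read 0.21, -1.13, 0.28 and -1.44 after VP64 against -4.83, -4.69, -2.94 and -4.52 after Delta. All 4 VP64 arrays and no Delta array were well above background, which makes it at least 10.6-fold higher (adjusted p 0.00418). Pparg, the nuclear receptor that drives fat cell differentiation and also acts in trophoblast, was well above background on 3 Delta arrays. It read -0.53, -0.93, -0.06 and -0.70 after VP64 and -3.45, -3.38, -3.40 and -3.38 after Delta, a difference of 2.85 ± 0.39 (7.21-fold, adjusted p 0.00481). Replicates of Pparg spread over less than 1 log2 unit within each group.

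Hoxc9, a homeobox gene of the trunk, read -1.32, -1.53 and -1.97 on the 3 VP64 arrays measured and between -5.72 and -4.65 on 3 Delta arrays, at least 5.20-fold higher. Hmx1, a homeobox gene of the developing eye and ear, read between -1.28 and -0.97 after VP64 and between -4.98 and -4.23 after Delta, at least 7.04-fold higher. Foxf2, a forkhead factor of mesenchyme, was at least 6.08-fold higher, with VP64 arrays between -2.49 and 0.60. A Delta array well above background was seen for none of the 3.

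The rest of these 12 genes follow. Tacr1, the substance P receptor, was at least 4.58-fold higher, with 2 of 4 VP64 arrays well above background. Mall, a membrane raft protein, read between -2.91 and -1.56 after VP64 and between -5.63 and -4.79 after Delta, at least 4.81-fold higher. Elmod1, a GTPase activator for ARL proteins, was at least 6.26-fold higher on 3 VP64 arrays that spread from -2.99 to -0.01. Tlcd4, a multipass membrane protein, was at least 5.71-fold higher, and Cfap221, a ciliary protein, at least 7.63-fold. Cfap221 differed from the others in that the eGFP arrays, with a mean of -0.44, were as high as the VP64 arrays, with a mean of -0.60.

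**Figure D4:**
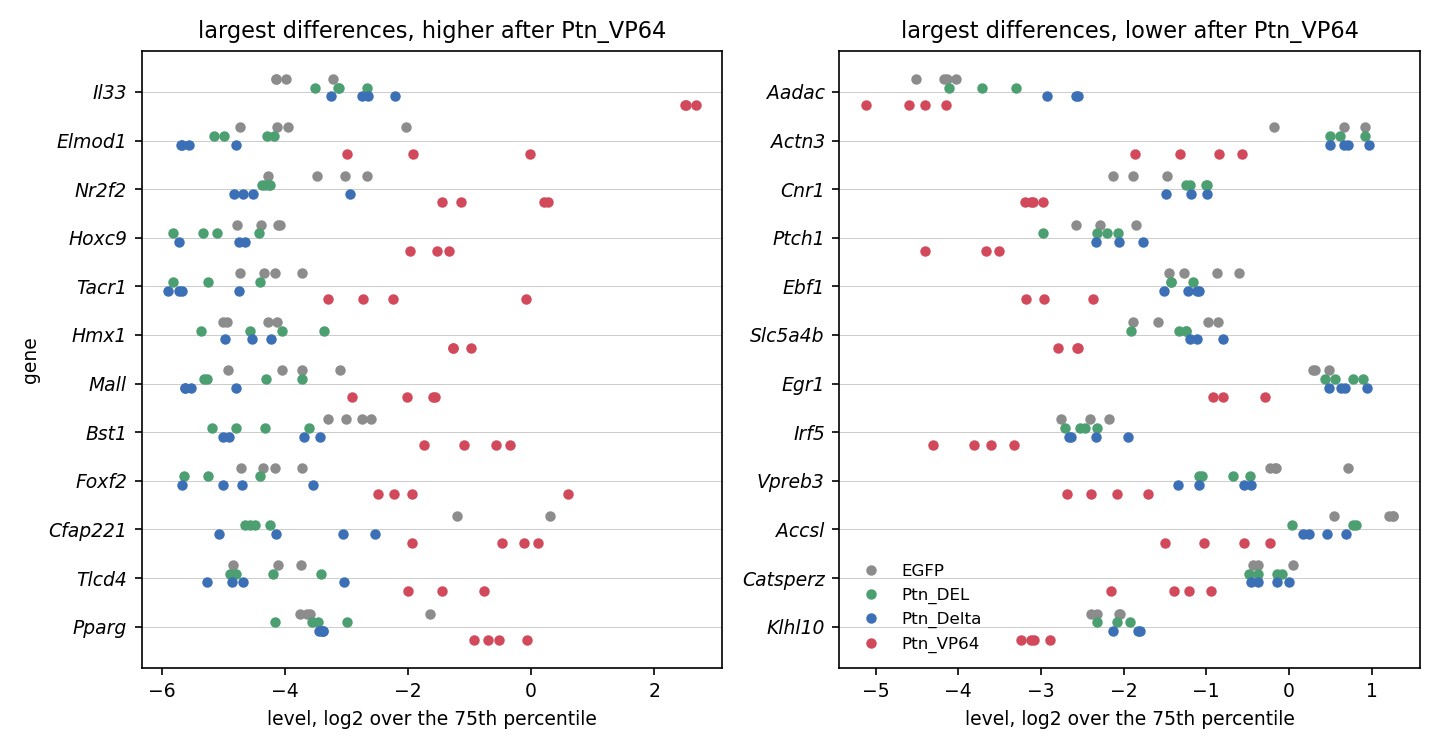
Levels on every measured array (log2 over the 75th percentile) of the 12 largest differences upward (left) and downward (right) among genes that met the naming rule; each point is 1 array, coloured by construct. By that rule, the VP64 arrays do not overlap the Delta arrays for any of the 24 genes. Arrays with eGFP reach into the VP64 range for Elmod1, Cfap221 and Aadac.

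Differences downward were smaller. Actn3, the fast-muscle alpha-actinin, read -1.86, -0.85, -1.31 and -0.57 after VP64 and 0.50, 0.66, 0.71 and 0.97 after Delta, a difference of -1.86 ± 0.29 (adjusted p 0.0162). Cnr1, the brain cannabinoid receptor, read between -3.19 and -2.97 after VP64 and between -1.49 and -0.99 on 3 Delta arrays, a difference of -1.85 ± 0.19 (adjusted p 0.00213). Egr1, an immediate early zinc finger factor downstream of ERK signalling, read -0.79, -0.92 and -0.29 after VP64 and 0.68, 0.49, 0.94 and 0.63 after Delta. Its difference was -1.37 ± 0.20, or 2.59-fold lower (adjusted p 0.0131). No array of one group overlapped the other for these 3 genes, which was a condition for naming them.

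Ptch1, the Hedgehog receptor and a target of that pathway, was not well above background on any VP64 array and was at least 2.49-fold lower. Irf5, an interferon regulatory factor, was at least 2.04-fold lower on the same basis. Ebf1, a factor of B cell and mesenchymal development, differed by -1.63 ± 0.26, and Accsl, a gene related to plant ACC synthase, by -1.22 ± 0.22. Vpreb3, of the pre-B cell receptor, differed by -1.36 ± 0.28, Slc5a4b, of the sodium-glucose transporter family, by -1.60 ± 0.31, Catsperz, of the sperm calcium channel, by -1.18 ± 0.23, and Klhl10, a testis ubiquitin ligase adaptor, by -1.17 ± 0.18. Aadac, a microsomal esterase, was at least 2.42-fold lower than with Delta, but its eGFP mean of -4.21 lay close to its VP64 mean of -4.57.

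Gene lists, 28 in all, were described next; they cover ES cell state, further cell types, cellular responses and the neighbours and receptors of Ptn. They were chosen with earlier results of these arrays known, so their counts are descriptions. A gene was tested when at least 2 arrays of either group were well above background. Members at the background after Delta therefore entered only where VP64 arrays were above it, as Bgn and Ccl2 did, and the reverse holds too. For lists of genes silent in ES cells, the counts above 0 and the medians depend in part on this filter. The median of all genes tested was -0.01, and 5802 of 11876 differences were above 0. Over all genes, 0.792% were called, 2.96% had a pairing p under 0.05 upward and 2.01% downward, so a list of these sizes with no call is at the background. In the group with the lower level, 1 array was well above background for Cnr1, Ebf1, Klhl10, Vnn1, Sdc3, Col1a1, Krt20 and Wnt7b, so their differences rest mostly on signals at the background. In that group, 1 of the 2 arrays measured was well above background for Cspg5 and for Phlda1.

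**Figure D5:**
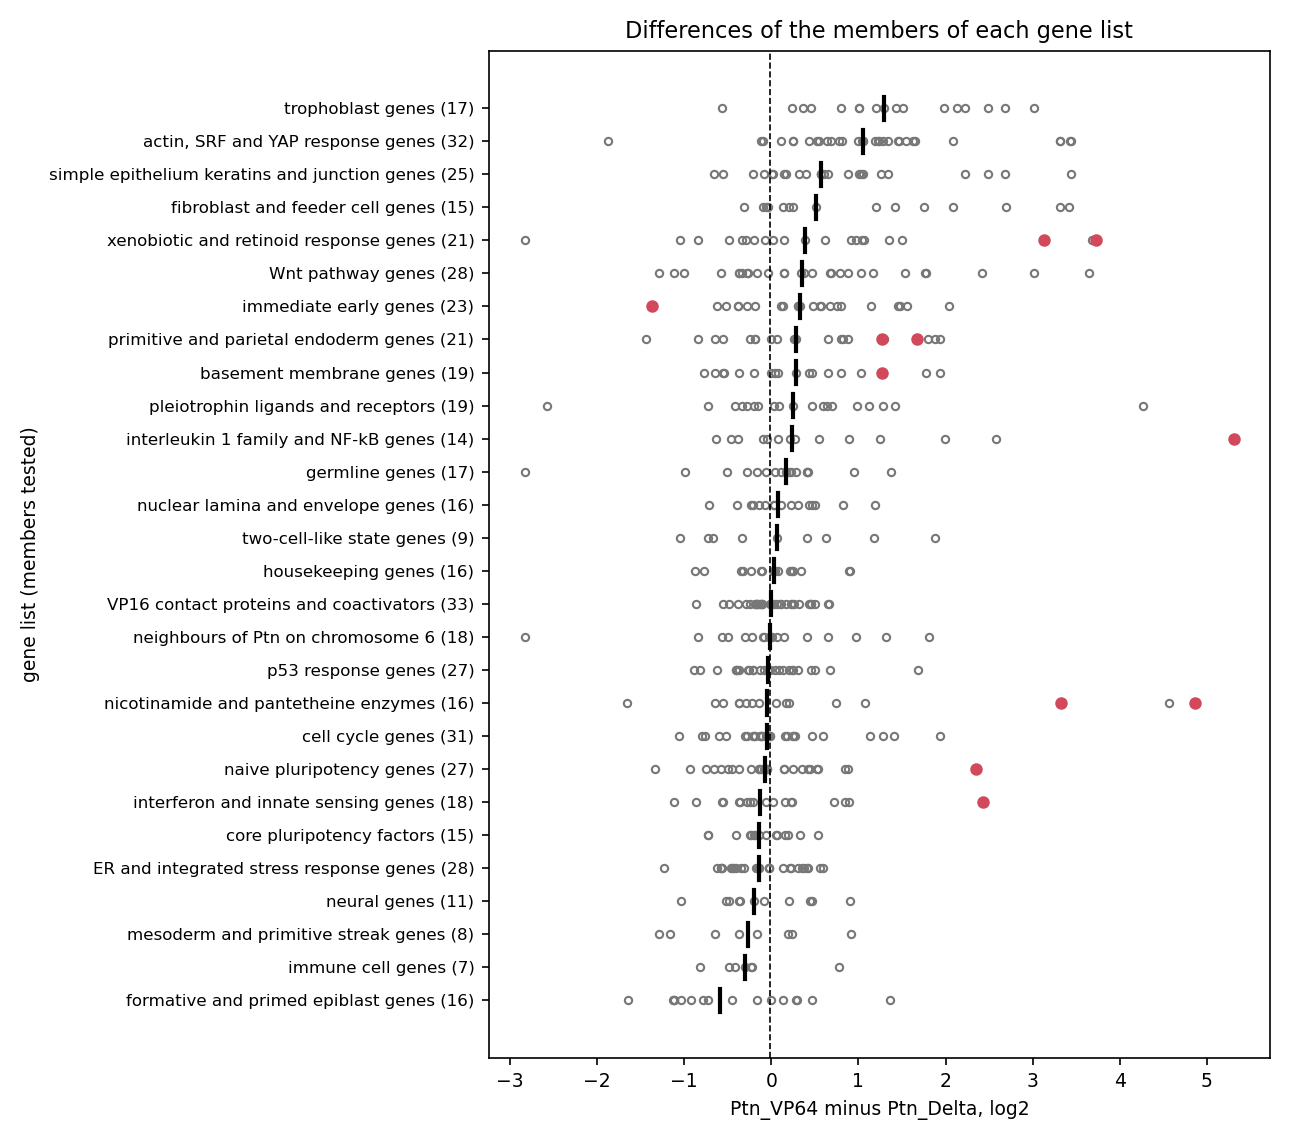
Differences of VP64 from Delta (log2, array-level fit) of the members of 28 gene lists, with the number tested in brackets; filled points were called, thick bars are list medians and the dashed line is the median of all genes tested, -0.01. Trophoblast genes (median 1.30) and actin, SRF and YAP response genes (1.06) have the highest medians, and formative and primed epiblast genes (-0.59) the lowest.

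Genes of the actin cytoskeleton that respond to the factors SRF and YAP were mostly above 0. Of 32 tested, 29 were above 0, with a median of 1.06, 1.27 on slide 1 and 0.88 on slide 2. None was called, and 4 had a pairing p under 0.05, all upward. Fhl2, a LIM-domain coactivator, read 2.61, 2.75 and 1.95 on 3 VP64 arrays and -1.26, 0.21 and -1.95 on 3 Delta arrays, a difference of 3.44 ± 0.81 (adjusted p 0.106). Thbs1, the matrix protein thrombospondin 1, read 3.24, 3.39 and 2.04 against -1.14, 1.42 and -1.54, a difference of 3.31 ± 1.02 (adjusted p 0.236). For both genes VP64 was measured on arrays 1, 3 and 4, and Delta on arrays 2, 3 and 4, of which array 3 was the highest. The DEL arrays 1 to 4 read -0.08, -1.32, 0.35 and -1.60 for Fhl2, and 0.79, -0.96, 1.28 and -1.38 for Thbs1. Arrays 1 and 3 share a row of their slides, so the measured arrays are not balanced over the rows. The part of this in the 2 differences was not tested. Tpm2, a tropomyosin, differed by 1.28 ± 0.41, Myl9, a myosin light chain, by 1.23 ± 0.42, and Lats2, a kinase of the Hippo pathway, by 1.23 ± 0.48.

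Trophoblast genes were above 0 in 16 of 17 cases, with a median of 1.30, 0.85 on slide 1 and 1.35 on slide 2, and none was called. Gata3, a zinc finger factor of trophectoderm, read 0.17, 2.12 and 0.37 after VP64 and -2.36, -1.26 and -2.75 after Delta, a difference of 3.01 ± 0.76 (adjusted p 0.137, pairing p 0.00347). Rhox9, a reproductive homeobox gene, differed by 1.98 ± 0.54, Rhox6 by 1.43 ± 0.58, and Cited1, a transcriptional coactivator of placenta, by 1.30 ± 0.52. Of 8 trophoblast markers, Elf5, Tpbpa and Prl3d1 were well above background on none of the 8 arrays. Cdx2 was so on 2 VP64 and 3 Delta arrays, Eomes on 3 and 4, Gata3 on 4 and 2, Krt7 on 3 and 2, and Hand1 on 1 and 0.

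Keratins and junction genes of simple epithelium were above 0 for 21 of 25 members, with a median of 0.58 and none called. Krt20, an intermediate filament protein of gut and urothelium, read 0.39, -0.51, 0.36 and -1.48 after VP64 and -4.51, -2.21 and -4.72 after Delta, a difference of 3.43 ± 0.82 (adjusted p 0.0978). Krt7 differed by 2.68 ± 1.31 and its arrays overlapped. Pkp2, a desmosome protein, differed by 0.60 ± 0.19, and Nectin2, a junction adhesion protein, by -0.56 ± 0.35.

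Fibroblast and feeder cell genes had a median of 0.52, with 11 of 15 above 0 and none called. Col1a1, a chain of type I collagen, read 1.57, -0.25, 1.98 and -0.08 after VP64 and -3.51, -0.61 and -3.67 after Delta, a difference of 3.42 ± 1.11 (adjusted p 0.248). Bgn, the small proteoglycan biglycan, was well above background on no Delta array and at least 4.56-fold higher (adjusted p 0.109). Acta2, smooth muscle actin, differed by 3.31 ± 1.28. It read 5.29, 5.92 and 3.30 on VP64 arrays 1, 3 and 4, and 3.05, -0.52, 3.35 and 0.18 on Delta arrays 1 to 4. The groups overlapped, although VP64 lay above Delta within each number measured in both. Of 8 fibroblast markers, Pdgfrb, Lum and Postn were well above background on none of the 8 arrays. Col1a1 was so on 4 VP64 arrays and 1 Delta array, Col1a2 on 3 and 2, Col3a1 on 3 and 4, Thy1 on 3 and 3, and Dcn on 1 and 1.

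Matrix genes of primitive and parietal endoderm included 2 of the called genes. Collagen IV forms the sheet of basement membranes. Col4a1 read 2.38, 1.19, 2.14 and 1.53 after VP64 and 0.57, 0.50, 0.39 and 0.67 after Delta, a difference of 1.27 ± 0.25 (adjusted p 0.0307). Its partner chain Col4a2 differed by 1.94 ± 0.39 (adjusted p 0.0533). Serpinh1, the collagen chaperone HSP47, read 4.89, 4.92 and 3.99 after VP64 and 3.21, 2.59 and 3.05 after Delta, a difference of 1.68 ± 0.33 (adjusted p 0.0458). Dab2, an endocytic adaptor of primitive endoderm, differed by 1.80 ± 0.47 and was not called. The list median was 0.29 over 21 genes, with 13 above 0 and 6 at a pairing p under 0.05, all upward.

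In the list of xenobiotic and retinoid response genes, 2 of 21 were called, both higher. Counting these, 8 had a pairing p under 0.05 upward and 2 downward, and the list median was 0.39. Cyp1b1, a cytochrome P450 induced through the aryl hydrocarbon receptor, read 1.26 and 1.23 on VP64 arrays 1 and 3, the 2 measured. It read -1.02, -2.78, -1.02 and -2.73 on Delta arrays 1 to 4. Its difference was 3.13 ± 0.55 (8.78-fold, adjusted p 0.0307). Arrays 1 and 3 share a row of their slides, and the Delta arrays of that row were the 2 highest. The fold sets VP64 arrays of 1 row against Delta arrays of both rows, so it is larger than the gap within that row. The part of the row in this difference was not tested. The other called gene was Nr2f2. Aldh1a2, which makes retinoic acid, read -0.87, -0.998, -0.89 and -1.24 after VP64 and -1.53, -1.62, -3.18 and -1.92 after Delta, a difference of 1.06 ± 0.28 (adjusted p 0.149). Stra8, a retinoic acid responsive gene of meiotic entry, had the opposite sign, at -0.68, 0.82 and -0.46 after VP64 and 2.31 and 2.95 on 2 Delta arrays, a difference of -2.83 ± 0.64 (adjusted p 0.126).

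Of the Wnt pathway genes, 17 of 28 were above 0 and none was called. Dkk1, a secreted Wnt antagonist, read 0.92, 2.25 and 0.64 after VP64 and -2.01, -3.00, -3.36 and -1.11 after Delta, a difference of 3.64 ± 0.76 (adjusted p 0.0675). The ligands Wnt7b and Wnt6 differed by 3.02 ± 0.63 and 1.54 ± 0.39, and the receptor Fzd2 by 1.16 ± 0.26. Their adjusted p was 0.0599, 0.100 and 0.0643. Of 23 immediate early genes, Egr1 was the 1 called, and 3 had a pairing p under 0.05 upward. Fosl2 differed by 2.04 ± 0.67, Ier3 by 1.48 ± 0.35 and Phlda1 by 1.55 ± 0.56. Phlda1 was measured on 2 Delta arrays, and its differences on slide 1 and slide 2 were 2.90 and 0.58.

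Among inflammatory and interferon genes, single members were called. Beside Il33, the chemokine Ccl2 was well above background on no Delta array and at least 2.64-fold higher (adjusted p 0.0733), and the cytokine Csf1 differed by 2.58 ± 0.91, neither called, in a list whose median was 0.24 over 14 genes. Gbp3, an interferon-induced guanylate binding protein, was the 1 called gene of 18 interferon and innate sensing genes. It read 0.89, 1.22 and 0.29 after VP64 and -1.41, -1.40 and -2.08 after Delta, a difference of 2.43 ± 0.41 (adjusted p 0.0425). Bst2, an interferon-induced antiviral membrane protein, differed by -0.86 ± 0.23, and the list median was -0.13.

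The 15 core pluripotency factors tested had a median difference of -0.14, with none called, and ranged from -0.73 to 0.54. Pou5f1 (Oct4) read 3.05, 6.16 and 6.54 after VP64 and 5.07, 6.35 and 6.50 after Delta, and the first VP64 array stood apart from the others. Of 27 naive pluripotency genes, 1 was called: Cish, a feedback inhibitor of cytokine receptors and a target of STAT5 signalling. Cish read 2.14, 1.88 and 2.23 after VP64 and -0.19, -0.22, -0.12 and -0.59 after Delta, a difference of 2.35 ± 0.22 (adjusted p 0.000493). Formative and primed epiblast genes had a median of -0.59, with 11 of 16 below 0 and none called. Sfrp2, a secreted Wnt modulator, differed by -1.12 ± 0.34, Nodal, the TGF-beta family ligand of epiblast, by -1.03 ± 0.52, Zic2 by -1.65 ± 0.65 and the cadherin Cdh2 by 1.36 ± 0.46. Nodal was measured on 2 arrays in each group, all on slide 2. The Zic2 arrays overlapped, with the first VP64 array the lowest. Cdh2 was measured on 2 VP64 arrays and differed by 2.51 on slide 1 and 0.21 on slide 2.

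Genes close to Ptn on chromosome 6 gave no call among 18 tested, with a median of -0.02 and a range of -2.83 to 1.81. Of these, 1 had a pairing p under 0.05 upward and 2 downward. Stra8, given above, is in this list and had the lowest difference, -2.83 ± 0.64. Hipk2 differed by -0.84 ± 0.30, with 1 VP64 array well above background. Cald1 differed by 1.81 ± 0.65, and its arrays overlapped. Mtpn, a neighbour of Ptn that codes for myotrophin, read 1.84, 2.18 and 1.62 after VP64 and 2.05 and 1.56 on 2 Delta arrays, a difference of 0.06 ± 0.34. Creb3l2, a membrane-bound transcription factor on the other side, read between -2.37 and -2.05 after VP64 and between -3.21 and -3.12 on 3 Delta arrays, a difference of 0.98 ± 0.26 (adjusted p 0.141). Among 19 ligands and receptors of pleiotrophin none was called, Ptn included. The receptor kinase Alk was well above background on no VP64 array and at least 1.54-fold lower (adjusted p 0.347). The heparan sulfate co-receptor Sdc3 differed by 1.42 ± 0.47, and Cspg5, a neural proteoglycan, by -2.57 ± 0.70.

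The 33 tested VP16 contact proteins and coactivators, none of them called, had a median of -0.0022 within a range of -0.87 to 0.66. No member was called among 27 p53 response genes (median -0.04), 28 genes of the ER and integrated stress responses (-0.14), 31 cell cycle genes (-0.05) or 16 housekeeping genes (0.03). The same held for 16 nuclear lamina and envelope genes (0.07), 9 genes that mark a 2-cell-like state (0.06) and 17 germline genes (0.17). Neural (-0.20, 11 genes), mesoderm and primitive streak (-0.27, 8 genes) and immune cell genes (-0.30, 7 genes) also held no called member. In basement membrane genes, the 1 called of 19 was Col4a1, and the list median was 0.28.

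The arrays were checked for their cell type and for other cell types by marker lists, summing each list's signal as multiples of the 75th percentile with no spot left out. All 9 ES cell markers were well above background on at least 2 arrays of each group, and their sum ran from 276 to 610 on VP64 arrays and from 455 to 960 on Delta arrays. The trophoblast sum ran from 2.63 to 12.9 against 1.37 to 2.52, with 4 of 8 markers above background in either group. On eGFP arrays it ran from 2.64 to 11.1, near the VP64 range, and on DEL arrays from 1.39 to 6.25. The fibroblast sum ran from 2.20 to 8.51 against 1.24 to 3.92, with 4 and 3 of 8 markers. It was 1.12 to 4.04 on eGFP arrays and 1.31 to 2.05 on DEL arrays. For primitive endoderm the sums were 2.23 to 2.88 against 1.62 to 3.45, for neural cells 2.14 to 4.15 against 3.38 to 5.90, for mesoderm 0.583 to 1.75 against 0.755 to 3.52, and for immune cells 0.472 to 1.15 against 0.588 to 1.26. More cells of a type and more RNA per cell cannot be told apart in these bulk samples, and the part of other cell types in the results was not tested. The share of spots well above background was 34.4% to 43.8% over the 8 arrays, and the number of arrays limits the precision.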

How the data were processed

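The 16 deposited Feature Extraction tables (version 11.5.1.1, single colour) were used. Their processed signal is an intensity that the software background-subtracted and spatially detrended within the array, per the file headers, and is not normalized between arrays. The deposited series values are log2 and quantile-normalized by the authors, since the sorted values of all columns are the same; they served as an alternative only.

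Each processed signal was divided by the 75th percentile of its array, put on the log2 scale and corrected for patches. At 17906 spots with a median level of at least -1 over the 16 arrays, the difference from that median was taken, and its median in a window of 21 by 21 spots was subtracted. Spots whose local shift was over 1 log2 unit away from the median shift of that array, or that were marked as non-uniform or outliers, were left out. On the 8 arrays of the comparison, 60.4% to 95.2% of spots were used. Spots of a probe were averaged. Probes had to be well above background on at least 2 arrays of either group and measured on at least 2 arrays of both, and the brightest stood for its gene, which left 11876 of 20972 genes. A total of 27656 of 55681 probes had 1 symbol, through RefSeq accessions of GRCm38.p6.

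The pairing test and the array-level fit used limma 3.58.1 in R 4.3.3 (lmFit and eBayes, 2-sided) on all 4 constructs. The array-level fit had the slide as a term; the pairing test had it in the pairing 1+2 and 3+4, since the samples of the other pairings average arrays of both slides. Adjusted p-values are Benjamini-Hochberg over all genes. Both tests were also run on simulated arrays, in which 1+2 and 3+4 were the technical repeats. That simulation had no effects of row, slide or patch, so it cannot show how the tests behave under those. Where no array of a group was well above background, a bound is given: the mean of the bright group against the mean of, per array, the higher of the lowest signal well above background and the probe's own. Over all spots of Delta array 2, before patch correction, the lowest such signal was -4.87. The median of the signals not above background was higher there, at -3.28. On VP64 array 2 these values were -7.64 and -3.51, and on the other arrays compared the lowest such signal lay above that median. The bounds are therefore approximate, and a true difference can be smaller. The p-values of the array-level fit measure the spread between hybridisations, technical repeats included. Those of the pairing test measure the spread between averages of 2 arrays. For a construct, at most 1 of the 3 pairings can match its biological samples. The labels do not say that biological samples came from separate cultures. The normexp alternative used the median spot and local background signal, raw intensity per the file headers, in place of the mean signal.

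The comparison, gene lists and naming rule were chosen with earlier results of these data known. Named were Ptn, genes of the pairing test, the 12 largest differences each way among genes called at array level with a pairing p under 0.05, 3 arrays measured in both groups and no overlap, up to 4 members of each list by pairing p, and 9 genes fixed by name.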

Additional observations from a re-analysis of the deposited data

Results flagged for a closer look

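Among 109 groups of 4 arrays of the named genes, 7 held an array whose gap to the nearest other array was above Dixon's 95% critical value; chance alone gives about 1 in 20. In the Delta group, replicate 3 was the highest for 3 dim genes: Elmod1 at -4.80 against -5.69 to -5.56, Nr2f2 at -2.94 against -4.83 to -4.52, and Mall at -4.79 against -5.63 to -5.52. None of these Delta arrays was well above background. Also in the Delta group, replicate 4 was the lowest for Stmn2, a tubulin-binding protein of neurons, at 2.97 against 3.43 to 3.53, and the highest for Mov10l1, a germline helicase, at -1.39 against -1.88 to -1.85. In the VP64 group, replicate 1 was the lowest for Plk3, a stress-responsive kinase, at -0.83 against 0.76 to 0.93, and replicate 2 the lowest for Oas1a, an interferon-induced antiviral enzyme, at -1.57 against -0.34 to -0.14.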

How the results depend on the processing

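Ptn kept its direction and an unadjusted pairing p under 0.05 under all 25 alternatives that gave a test, with differences from 3.37 to 4.84; leaving out 1 array gave 3.37 to 4.60, the values within slide 1 and slide 2 were 3.49 and 4.84, and no probe of it was measured with a limit of 0.5 log2 units or above background on all 4 arrays of a group. The 1 gene of the pairing test became 0 with no patch correction, with normexp and quantile normalization, with the deposited series values, with spots marked as outliers kept, with no filter on dim probes, with a signal above background required on all 4 arrays of a group, and with only the 8 arrays or the 12 TALE arrays in the fit. It became 2 with a limit of 0.5 log2 units and with quantile normalization of patch-corrected levels. Leaving out 1 array gave 0 to 2, with 0 without VP64 replicate 1, 3 or 4 and 2 without Delta replicate 4. The 94 genes of the array-level fit became 4 with no patch correction, 3 with normexp, 4 with the deposited series values, 22 with no filter on dim probes, 55 with a window of 41 by 41 spots, 57 with a limit of 0.5, and 7 with only the 8 arrays in the fit. They became 148 with no slide term and 183 with array weights. Leaving out 1 array gave 26 to 100: 31 without VP64 replicate 1, 26 without VP64 replicate 3, and 46, 39 and 26 without Delta replicates 1, 2 and 4. With no patch correction 93 of the 94 genes kept their sign, the exception being Dcc, and the cause of the lost calls was not tested. The share of genes whose arrays do not overlap was 13.7% and became 5.80% with no patch correction, 6.00% with normexp, 4.46% with the deposited series values and 6.93% with no filter on dim probes. Leaving out 1 array gave 15.2% to 21.04%, by construction, since fewer arrays overlap less often. With no patch correction, more genes lay below than above (202 against 95), the reverse of the main setting (87 against 127); the same held with normexp (186 against 122) and the deposited values (143 against 86), and the cause was not tested. Same-numbered arrays of VP64 and Delta correlated at 0.041, 0.207, 0.260 and 0.194 in their deviations. VP64 arrays 2, 3 and 4 correlated best with the Delta array of their own number, and VP64 array 1 did not. Each number is 1 row of 1 slide that holds all 4 constructs. The main array-level fit did not take the number as a block, so variation between rows stays in its SE and p. With the replicate block, the array-level fit called 269 genes (182 higher, 87 lower) and Ptn differed by 4.17. Alternatives added after seeing the data gave, for the array-level fit, 24 genes with no array numbered 2 of either group (24.1% without overlap) and 86 of 21785 probes, named or not. For the pairing test they gave 3 genes in the pairing 1+3 and 2+4 alone and 73 in 1+4 and 2+3 alone. Over 128 other named genes and all alternatives, 2727 of 3130 values kept their side of the threshold and direction, 264 lost and 72 gained the call, and 67, never called, changed sign.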

Other observations

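Replicate numbers 1 and 3 gave the closest pair of arrays within eGFP, DEL and Delta, with a median difference in size of 0.26, 0.23 and 0.19 log2 units per gene. Within VP64 the closest pair was 3 and 4 (0.31), followed by 1 and 3 (0.36). Numbers 1 and 3 also share a row of their slides, and 2 and 4 the other row, so a shared sample and a shared row cannot be told apart.

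Probes without a gene symbol in the RefSeq table made up 13 of the 86 probes called when every probe was tested, 10 higher and 3 lower after VP64.

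The genes named next are outside the naming rule, were called in the array-level fit and were chosen after their values were seen. Anxa2, a membrane-binding annexin, differed by 1.495, Flnc, an actin cross-linker, by 1.46, and Phldb2, a cortical microtubule anchor, by 3.33, on 2 VP64 arrays. Igf2, an imprinted growth factor, and Osmr, the oncostatin M receptor, were well above background on no Delta array and at least 3.85-fold and 3.80-fold higher. Among the lower genes, Abcc4, an efflux transporter, differed by -1.61.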
